A study of Arabidopsis thaliana with 20 samples.

Results

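Whole seedlings of the ein2 lhp1 double mutant were compared with wild type at 21 °C. The comparison rests on 4 of the 20 RNA sequencing libraries of the series, 2 from each group, chosen by their genotype and temperature labels. The ein2 lhp1 plants carried the alleles ein2-5 and lhp1-3 together, and wild type was Col-0. Both single mutants, ein2 (ein2-5) and lhp1 (lhp1-3), each with 2 libraries at 21 °C, served to place the double mutant. The nature of the lesions is not given in the labels. Plants of all groups were 5 days old, grown on MS medium with 1% sucrose in short days at 21 °C after 3 days of stratification at 4 °C. At 27 °C, ein2 lhp1 and wild type had 2 further libraries each, from seedlings kept at 27 °C for 4 h, which gave the same contrast in plants not used at 21 °C. The labels do not state when in the day seedlings at 21 °C were sampled. RNA came from whole seedlings, so a change in the number of cells of a type and a change of RNA per cell cannot be told apart.

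EIN2 is a membrane protein that carries the ethylene signal. In air, the ethylene receptors and the kinase CTR1 hold EIN2 inactive. When ethylene binds, part of EIN2 enters the nucleus and the transcription factors EIN3 and EIL1 accumulate, which switch on ERF and RAV factors and, in a negative loop, receptors and F-box proteins that remove EIN3. LHP1 binds histone H3 trimethylated at lysine 27, the mark laid down by polycomb repressive complexes, and helps to keep genes of other organs and stages, among them floral MADS-box genes and seed genes, silent in seedlings. The double mutant thus lacks, by genotype, a main carrier of the ethylene signal and a reader of the polycomb mark.

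In the libraries of the 4 genotypes at 21 °C, total counts lay between 29856840 and 43087184, and 23212 to 24749 genes had at least 1 count. Levels are given as CPM, counts scaled to the size of the library with TMM factors, for replicate 1 and replicate 2 in that order. Differences are log2 differences from edgeR's quasi-likelihood model over all 20 libraries. Each standard error (SE) is the size of the difference divided by the square root of the F statistic of its test. It is approximate and may be too small where a group has few counts. A gene was called at a Benjamini-Hochberg adjusted p under 0.05 over the 21987 genes tested. In ein2 lhp1 against wild type, 7427 genes (33.8%) were called, of which 3878 (17.6%) were higher and 3549 (16.1%) lower in ein2 lhp1. With a difference of at least 1 log2 unit besides, 1159 genes (5.27%) were called, 713 (3.24%) higher and 446 (2.03%) lower. Many calls were thus of small size, with a median absolute log2 difference of 0.413 among called genes, since replicates lay close together. Whether the replicates were grown separately is not stated, so p-values measure only the spread between these libraries, which may be technical. The median log2 difference over all genes tested was -0.00244. Genes in or beside ribosomal RNA genes took 8.81% and 10.9% of counts in ein2 lhp1, against 8.2% and 8.41% in wild type. With these genes left out before scaling, 7440 genes were called, 7325 of them among the 7427.

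The genotype labels were checked on the mutated genes. EIN2 (AT5G03280, chromosome 5, 787428 to 793404, TAIR10) was at 25.4 and 22.8 CPM in ein2 lhp1, 26.0 and 23.4 CPM in ein2, 78.9 and 71.9 CPM in lhp1, and 66.1 and 71.0 CPM in wild type. Both genotypes with the ein2-5 allele were low and did not overlap with the others. The log2 difference of ein2 lhp1 from wild type was -1.51 ± 0.067 (SE, adjusted p = 3.3e-31). LHP1 (AT5G17690, chromosome 5, 5827142 to 5829763) was at 5.43 and 7.43 CPM in ein2 lhp1, 11.0 and 9.04 CPM in ein2, 9.53 and 9.33 CPM in lhp1, and 12.1 and 11.0 CPM in wild type. LHP1 was lower in ein2 lhp1 than in wild type by a log2 difference of -0.84 ± 0.14 (adjusted p = 4.9e-07), but the difference of lhp1 from wild type, -0.29 ± 0.13, was not called (adjusted p = 0.077). The level of the LHP1 transcript therefore does not check the lhp1 label. Within 1 Mb of EIN2, 159 of 458 genes tested (34.7%) were called in ein2 lhp1 against wild type, and within 1 Mb of LHP1, 165 of 488 (33.8%), close to the share over all genes.

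**Figure D1:**
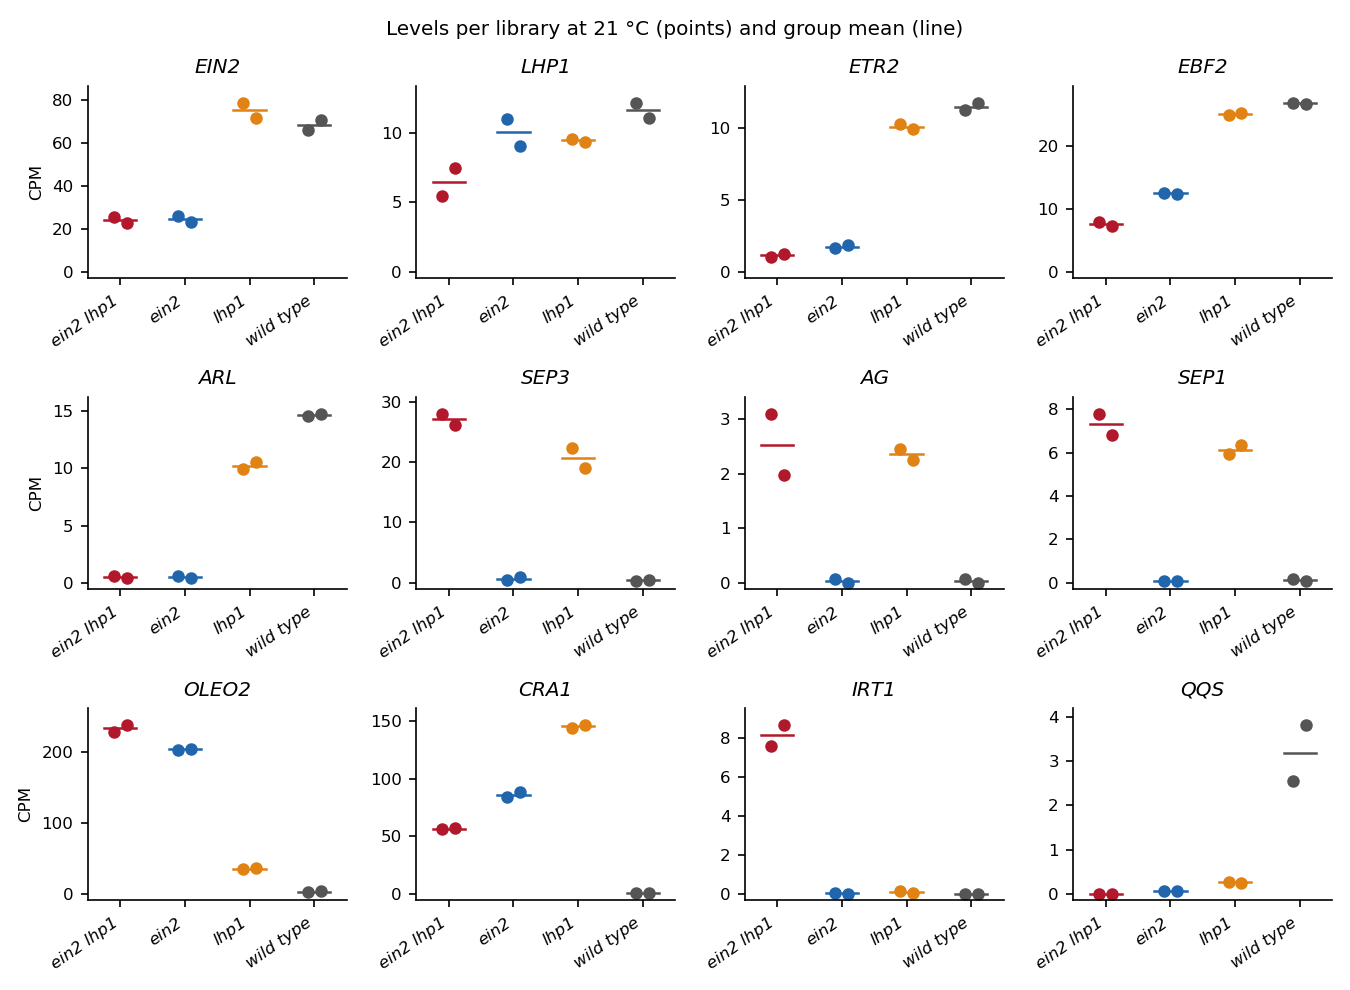
Level (CPM, linear axis from 0) of 12 genes in the 2 libraries of each genotype at 21 °C, with ein2 lhp1 at the left and wild type at the right of each panel; points are libraries and the line is the mean of the group. EIN2, ETR2, EBF2 and ARL were low in ein2 lhp1 and ein2, SEP3, AG and SEP1 were high in ein2 lhp1 and lhp1, and OLEO2 was high in all 3 mutants, highest in ein2 lhp1.

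Genes that ethylene signalling feeds back on were lower in ein2 lhp1. Of the 7 receptor-complex genes, all tested, 4 were called lower and 0 higher. ETR2, an ethylene receptor, was at 1.06 and 1.23 CPM in ein2 lhp1, 1.63 and 1.85 CPM in ein2, 10.3 and 9.93 CPM in lhp1, and 11.3 and 11.8 CPM in wild type. The libraries of both genotypes with ein2-5 lay far below those with an intact EIN2, and the log2 difference of ein2 lhp1 from wild type was -3.33 ± 0.21 (adjusted p = 2.8e-23). The receptors ERS1 and ERS2 and the kinase CTR1 also fell, with log2 differences of -0.93 ± 0.082, -1.34 ± 0.24 and -0.51 ± 0.081. ERS1 was at 17.2 and 17.1 CPM in ein2 lhp1, 24.4 and 23.8 CPM in ein2, 34.9 and 39.0 CPM in lhp1, and 31.8 and 33.4 CPM in wild type. It was lower in ein2 lhp1 than in either single mutant, and its difference departed from the sum of the single-mutant differences by -0.66 ± 0.11 log2 units (adjusted p = 2.4e-06). ETR1 and EIN4, the other receptors, had log2 differences of 0.16 ± 0.085 and 0.040 ± 0.12 and were not called.

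Among 11 genes of the downstream signal and its feedback, 5 were called lower and 2 higher in ein2 lhp1, or 1 higher without ein2 lhp1 replicate 2 or without either wild type library. EBF2, an F-box protein that targets EIN3 for degradation, was at 7.97 and 7.29 CPM in ein2 lhp1, 12.4 and 12.4 CPM in ein2, 24.9 and 25.3 CPM in lhp1, and 26.8 and 26.7 CPM in wild type. None of the 4 groups overlapped with another, and the log2 difference from wild type was -1.81 ± 0.11 (adjusted p = 9.7e-25), -0.61 ± 0.15 beyond the sum of the single mutants (adjusted p = 0.00057). EBF1, the other F-box protein of this kind, was higher, with 136 and 141 CPM in ein2 lhp1, 129.9 and 126 CPM in ein2, 80.1 and 84.6 CPM in lhp1, and 73.6 and 72.8 CPM in wild type. Its log2 difference was 0.92 ± 0.055 (adjusted p = 3.7e-24), so the F-box pair moved in opposite directions. EIL1 was lower by a log2 difference of -0.60 ± 0.065. ARL and ARGOS, small membrane proteins that dampen ethylene sensitivity and promote organ growth, showed the largest falls of the list. ARL was at 0.599 and 0.409 CPM in ein2 lhp1, against 14.6 and 14.8 CPM in wild type, a log2 difference of -4.86 ± 0.23 (adjusted p = 7.6e-30), and in ein2 it was at 0.629 and 0.396 CPM. ARGOS was at 0.564 and 0.750 CPM in ein2 lhp1, 1.95 and 1.88 CPM in ein2, 7.32 and 5.24 CPM in lhp1, and 15.8 and 14.6 CPM in wild type. Both single mutants were below wild type, and ein2 lhp1 was below both, with a log2 difference of -4.52 ± 0.22 from wild type (adjusted p = 1.7e-28).

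Of 12 ethylene response transcription factors, 11 were tested, 6 were called lower and 1 higher, or 0 higher without wild type replicate 2. The RAV family members TEM1, RAV2, EDF3 and RAV1, early targets of EIN3, had log2 differences of -1.45 ± 0.096, -1.25 ± 0.081, -1.42 ± 0.25 and -1.03 ± 0.10. TEM1, which also represses flowering, was at 10.9 and 11.2 CPM in ein2 lhp1, 15.8 and 15.4 CPM in ein2, 28.2 and 27.1 CPM in lhp1, and 31.2 and 29.3 CPM in wild type. ERF2 was at 0.634 and 0.409 CPM in ein2 lhp1, against 3.78 and 3.45 CPM in wild type, a log2 difference of -2.78 ± 0.40 (adjusted p = 2.2e-08). In none of these did ein2 lhp1 and wild type overlap. ERF1, the best known direct EIN3 target, had at most a few counts in any of these libraries and was not tested, and ORA59 and HLS1 were not called. The sequence ATGTANCT, a motif bound by EIN3 and EIL1, was present on either strand in the 250 bases before the start of 1 of the 15 members of these 3 lists that were called lower (6.67%), against 3.7% of 21862 such windows over all genes tested.

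Ethylene synthesis genes moved in both directions, with 3 higher and 2 lower of 11 tested among 12 members, and 2 higher without ein2 lhp1 replicate 1 or without either wild type library. The ACC oxidase ACO4, which makes ethylene from its precursor, fell by a log2 difference of -0.81 ± 0.041 (adjusted p = 2.6e-28). ACO4 was at 141 and 143 CPM in ein2 lhp1, 151 and 146 CPM in ein2, 115 and 122 CPM in lhp1, and 248 and 251 CPM in wild type. All mutants were below wild type for ACO4, and ein2 lhp1 was less far below than the sum of the single mutants would place it (non-additivity 1.01 ± 0.058, adjusted p = 7.1e-25). AT1G12010, an ACC oxidase with few reads, was at 4.79 and 4.29 CPM in ein2 lhp1, against 2.13 and 2.05 CPM in wild type, and rose by 1.12 ± 0.25 log2 units.

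Floral identity genes were high in ein2 lhp1. Of 27 floral and flowering genes, 21 passed the count filter, 15 were called higher and 1 lower (0 lower without ein2 lhp1 replicate 1), and the median log2 difference was 1.41. The other 6 (AP1, CAL, FT, TSF, SHP2 and STK) had next to no reads in any library. SEP3, a MADS-box factor needed for the identity of all floral whorls, was at 27.98 and 26.2 CPM in ein2 lhp1, 0.440 and 0.924 CPM in ein2, 22.3 and 19.0 CPM in lhp1, and 0.366 and 0.419 CPM in wild type. Both genotypes with lhp1-3 were high and both with intact LHP1 were near the detection limit, and the log2 difference of ein2 lhp1 from wild type was 6.08 ± 0.20 (adjusted p = 5.3e-40). SEP1 was likewise high in both genotypes with lhp1-3, at 7.79 and 6.82 CPM in ein2 lhp1, 0.0629 and 0.0660 CPM in ein2, 5.93 and 6.34 CPM in lhp1, and 0.183 and 0.0931 CPM in wild type. AG, which specifies stamens and carpels, was at 3.102 and 1.98 CPM in ein2 lhp1, 0.0629 and 0 CPM in ein2, 2.46 and 2.26 CPM in lhp1, and 0.0609 and 0 CPM in wild type. The petal and stamen gene PI had 6.49 and 5.998 CPM in ein2 lhp1, 0.629 and 0.330 CPM in ein2, 8.94 and 9.02 CPM in lhp1, and 0.427 and 0.326 CPM in wild type, with a log2 difference of 4.06 ± 0.29 (adjusted p = 2e-20). AGL24, a promoter of the floral transition, had a log2 difference of 3.08 ± 0.33, AP3 of 2.88 ± 0.61 and SEP4 of 1.41 ± 0.19. For SEP1, SEP3, AG, PI and AGL24 the non-additivity was not called, with values of 1.25 ± 0.93, -0.38 ± 0.38, -0.14 ± 1.4, -0.90 ± 0.46 and -0.31 ± 0.51.

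Flowering time genes changed less. SOC1, which integrates flowering signals, rose by 0.37 ± 0.11, and SVP, a repressor of flowering, was at 54.2 and 54.3 CPM in ein2 lhp1, against 37.8 and 41.2 CPM in wild type, a rise of 0.45 ± 0.064 log2 units. The repressor FLC rose by 0.84, a call that not every setting kept (0.64 to 1.01 across settings). Of the relatives of FLC, MAF4 and MAF5 rose by 1.13 ± 0.23 and 2.00 ± 0.37, MAF3 had -0.47, and MAF1 and MAF2 were not called. MAF4 was at 4.65 and 5.32 CPM in ein2 lhp1, 2.33 and 1.58 CPM in ein2, 1.62 and 1.49 CPM in lhp1, and 1.95 and 2.56 CPM in wild type. It was higher in ein2 lhp1 than in any other genotype, and neither single mutant was called against wild type, so that its non-additivity was 1.89 ± 0.35 (adjusted p = 8.9e-06). In the meristem list of 6 genes 1 was called higher, WUS, and 1 lower. The call of WUS (3.02 ± 1.1) ended without ein2 lhp1 replicate 2 (adjusted p 0.571) and without wild type replicate 1 (adjusted p 0.192). STM, KNAT2 and KNAT6 were not called, and KNAT1 had a log2 difference of -0.44 ± 0.080. The telobox AAACCCTA, which recruits polycomb factors, occurred in 0 of the 21 windows of the floral list, against 3.75% of all windows.

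Seed genes had the highest median difference of the 31 lists. Storage proteins, oil body proteins and late embryogenesis abundant (LEA) proteins accumulate in maturing seeds, their transcripts are lost on germination, and many carry the RY repeat CATGCA, bound by B3 factors such as ABI3, and the ACGTG core bound by the bZIP factor ABI5. Of 20 such genes, 19 were tested, 16 were called higher and 0 lower in ein2 lhp1, with a median log2 difference of 4.03. The list summed to 950.1 and 974 CPM in ein2 lhp1, 774 and 796 CPM in ein2, 714 and 721 CPM in lhp1, and 66.0 and 69.5 CPM in wild type. The RY repeat was found on either strand in the 250 bases before the gene start of 12 of the 19 tested members (63.2%), against 8.03% of all 21862 windows, and ACGTG in 14 of 19 (73.7%), against 24% of all windows. These matches are descriptions of the sequence and not tests of a site. The windows of 3 members are shown because they span the range of responses described below, from SESA3, which was not called, to EM1, a LEA gene, and CRA1, both far above wild type. They are RefSeq sequence of TAIR10.1, written 5′ to 3′ on the strand of the gene and ending at the base before its start. Capitals mark CATGCA on either strand in SESA3 (7 matches, some of which overlap, chr4:13611546-13611795, plus strand) and CRA1 (2 matches, chr5:17758337-17758586, minus strand), and ACGTG on either strand in EM1 (2 matches, chr3:19214472-19214721, plus strand).
SESA3: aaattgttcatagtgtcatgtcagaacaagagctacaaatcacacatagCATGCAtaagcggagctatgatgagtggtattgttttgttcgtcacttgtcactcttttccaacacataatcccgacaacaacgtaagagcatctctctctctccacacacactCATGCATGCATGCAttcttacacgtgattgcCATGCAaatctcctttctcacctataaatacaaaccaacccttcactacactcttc
CRA1: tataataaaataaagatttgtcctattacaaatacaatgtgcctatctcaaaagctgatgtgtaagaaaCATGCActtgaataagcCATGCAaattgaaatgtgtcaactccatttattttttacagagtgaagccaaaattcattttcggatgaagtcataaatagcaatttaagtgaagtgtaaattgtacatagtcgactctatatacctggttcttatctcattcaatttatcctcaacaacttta
EM1: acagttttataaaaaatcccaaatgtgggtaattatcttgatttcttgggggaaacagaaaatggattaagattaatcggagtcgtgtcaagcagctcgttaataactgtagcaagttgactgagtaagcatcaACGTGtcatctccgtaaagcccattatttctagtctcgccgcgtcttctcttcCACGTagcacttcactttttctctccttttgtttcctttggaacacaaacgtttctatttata

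Within the seed list the order of the genotypes differed. Several oil body and LEA genes were highest in ein2 lhp1. OLEO2, an oleosin that coats oil bodies, was at 229 and 239 CPM in ein2 lhp1, 204 and 205 CPM in ein2, 35.4 and 35.8 CPM in lhp1, and 2.44 and 3.26 CPM in wild type. The log2 difference of ein2 lhp1 from wild type was 6.33 ± 0.079 (adjusted p = 2.5e-66), and ein2 lhp1 was also higher than ein2 by 0.20 ± 0.049 (adjusted p = 0.00085). EM1 was at 31.4 and 34.7 CPM in ein2 lhp1, 13.4 and 12.7 CPM in ein2, 13.0 and 14.8 CPM in lhp1, and 0.914 and 0.512 CPM in wild type. The LEA gene AT3G15670 was at 252 and 244 CPM in ein2 lhp1, 136 and 144 CPM in ein2, 84.2 and 82.5 CPM in lhp1, and 14.7 and 15.6 CPM in wild type. For both LEA genes ein2 lhp1 was highest and wild type lowest, and their log2 differences from wild type were 5.58 ± 0.15 and 4.03 ± 0.054. The oleosin OLEO1 (5.18 ± 0.12), the peroxiredoxin PER1 (4.11 ± 0.069) and the dehydrin RAB18 (2.03 ± 0.055) rose against wild type as well. Not all such genes were highest in ein2 lhp1. OLEO1 and PER1 were called lower than in ein2 (-0.42 and -0.21), and OLEO4 and M17 lower than in lhp1 (-1.93 and -1.14). Over the whole list, 8 genes were called higher and 6 lower than in ein2, and 7 higher and 10 lower than in lhp1.

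The 8 cruciferin and albumin genes were instead highest in lhp1. CRA1, a cruciferin subunit of the main seed globulin, was at 55.9 and 57.5 CPM in ein2 lhp1, 84.0 and 88.7 CPM in ein2, 144 and 147 CPM in lhp1, and 0.731 and 0.791 CPM in wild type. All mutants were far above wild type, and ein2 lhp1, with a log2 difference of 6.20 ± 0.13 from wild type, was below each single mutant, by -0.61 ± 0.067 against ein2 and -1.36 ± 0.066 against lhp1. CRU3, another cruciferin, was at 3.03 and 2.999 CPM in ein2 lhp1, 4.65 and 4.22 CPM in ein2, 118 and 117 CPM in lhp1, and 0.0609 and 0.140 CPM in wild type. The albumin SESA3 was at 0.211 and 0 CPM in ein2 lhp1, 0.880 and 0.726 CPM in ein2, 19.9 and 19.0 CPM in lhp1, and 0.122 and 0.140 CPM in wild type. It was near the detection limit in ein2 lhp1 and wild type, with no difference called between them (-0.33 ± 0.86), and high in lhp1. CRU2 was at 0.0705 and 0 CPM in ein2 lhp1 against 4.38 and 3.47 CPM in lhp1, with a log2 difference of -6.68 ± 0.89 between them (adjusted p = 2.4e-09). The albumins SESA1 and SESA2 had few counts. SESA1 had 0 and 0.204 CPM in ein2 lhp1, 0.503 and 0.528 CPM in ein2, 8.07 and 6.03 CPM in lhp1, and 0 and 0 CPM in wild type, and its call against wild type (adjusted p = 0.044) ended without either wild type library (adjusted p 0.131 without replicate 1 and 0.182 without replicate 2) and without ein2 lhp1 replicate 2 (adjusted p 1). The call of SESA2, 2.19 ± 0.81, ended without ein2 lhp1 replicate 2 (adjusted p 0.213) and without wild type replicate 2 (adjusted p 0.412). Over the list, the departure from the sum of the single-mutant differences was negative and called in 17 of 19 genes and positive in 0, with a median of -3.66. CRU3 and SESA3 were among the largest, at -10.63 ± 0.30 and -10.07 ± 0.72 log2 units. Wild type was near 0 counts for both, as was ein2 lhp1 for SESA3, so these fitted values depend on the prior count and give no fold.

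Regulators of seed maturation and the enzymes that use seed oil were higher too. Of 7 regulators, 5 were tested, 4 were called higher and 0 lower. ABI5 was at 13.8 and 16.6 CPM in ein2 lhp1, 12.01 and 13.0 CPM in ein2, 7.39 and 8.78 CPM in lhp1, and 2.99 and 2.23 CPM in wild type, a log2 difference of 2.56 ± 0.16 (adjusted p = 1.7e-23). ABI3 was at 17.8 and 15.2 CPM in ein2 lhp1, 16.8 and 17.4 CPM in ein2, 8.39 and 8.29 CPM in lhp1, and 5.97 and 5.73 CPM in wild type. ABI4, an AP2-type factor, was at 2.50 and 3.24 CPM in ein2 lhp1, 0.754 and 1.19 CPM in ein2, 2.05 and 1.71 CPM in lhp1, and 0 and 0.0931 CPM in wild type. All 3 were above wild type in each mutant. The call of FUS3, with few counts (3.36 ± 1.4, adjusted p = 0.049), ended without ein2 lhp1 replicate 2 (adjusted p 0.725) and without wild type replicate 1 (adjusted p 0.0573) or replicate 2 (adjusted p 0.333), and DOG1, the dormancy gene, was not called (0.061 ± 0.20). LEC1 and LEC2 were under the filter. The glyoxylate cycle enzymes ICL and MLS and the gluconeogenic enzyme PCK1 all rose. ICL was at 1043 and 1032 CPM in ein2 lhp1, 931 and 913 CPM in ein2, 1080.3 and 1041 CPM in lhp1, and 253 and 252 CPM in wild type. The 3 mutants were near each other and all far above wild type, with a log2 difference of 2.04 ± 0.028 in ein2 lhp1, and the sum of the 3 genes was 1439 and 1429 CPM in ein2 lhp1, against 425 and 425 CPM in wild type.

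**Figure D2:**
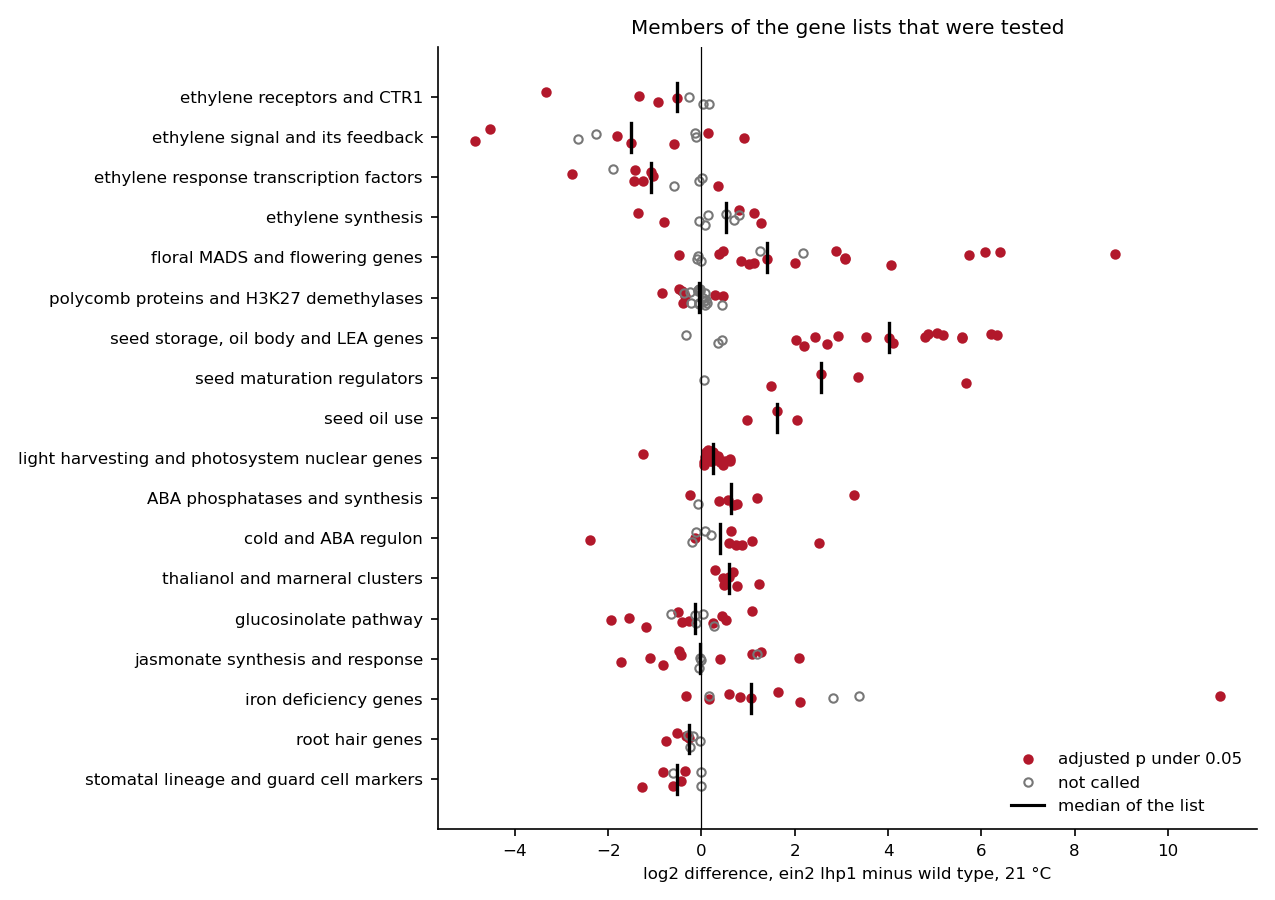
Log2 difference of ein2 lhp1 from wild type at 21 °C (horizontal axis) for each tested member of 18 gene lists (rows); red points were called, open grey points were not, and the bar is the median of the list. By median, the seed storage, oil body and LEA list lies furthest to the right. Seed maturation regulators, seed oil use and floral genes follow in that order. Members of the ethylene receptor, signal and transcription factor lists lie mostly left of 0. The median of ethylene synthesis lies right of 0.

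Most nuclear light-harvesting and photosystem genes were slightly higher in ein2 lhp1 and lower in both single mutants. In ein2, 22 were called lower and 2 higher than wild type, and in lhp1 24 lower and 0 higher. Of 25 nuclear light-harvesting and photosystem genes, 24 were tested, 23 were called higher and 1 lower, with a median log2 difference of 0.24. They summed to 123990.0 and 122580.0 CPM in ein2 lhp1, 84359 and 84407 CPM in ein2, 68074 and 66761 CPM in lhp1, and 97515 and 96616 CPM in wild type. PSAG, a subunit of photosystem I, was at 648 and 634 CPM in ein2 lhp1, 296 and 311 CPM in ein2, 335 and 348 CPM in lhp1, and 422 and 423 CPM in wild type. It was thus above wild type in the double mutant and below it in each single mutant, with log2 differences of 0.60 ± 0.030 in ein2 lhp1, -0.48 ± 0.031 in ein2 and -0.31 ± 0.030 in lhp1. LHCB2.3, an antenna protein of photosystem II, was at 1272 and 1237 CPM in ein2 lhp1, 716 and 704 CPM in ein2, 507 and 487 CPM in lhp1, and 994 and 982 CPM in wild type, and had the largest non-additivity of the list, 1.81 ± 0.036 (adjusted p = 1.9e-52). In all 24 genes the departure from the sum of the single mutants was positive and called, with a median of 1.01. The exception against wild type was LHCB4.3, a minor antenna protein, at 16.6 and 16.6 CPM in ein2 lhp1, 20.6 and 21.8 CPM in ein2, 18.2 and 21.5 CPM in lhp1, and 41.6 and 37.6 CPM in wild type. The antenna genes CAB1, CAB2 and CAB3 are near-identical copies whose reads may be split unevenly, and are not described singly. The call of the antenna gene LHCA1 was of very small size (0.048 ± 0.018, adjusted p = 0.025) and ended without ein2 lhp1 replicate 1 (adjusted p 0.323) and without wild type replicate 1 (adjusted p 0.0698) or replicate 2 (adjusted p 0.189).

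The small subunit genes of Rubisco, the enzyme that fixes carbon dioxide, differed among themselves. RBCS1A was at 29724 and 29872 CPM in ein2 lhp1, 17978 and 17921 CPM in ein2, 16634 and 16290.0 CPM in lhp1, and 19690.0 and 19811 CPM in wild type, a log2 difference of 0.59 ± 0.014 in ein2 lhp1. RBCS1B had a log2 difference of -0.12 ± 0.022 and the Calvin cycle genes GAPA and GAPB of -0.11 ± 0.025 and -0.14 ± 0.024. Of the 10 genes of this list 6 were called higher and 3 lower, and 9 had a positive non-additivity that was called and 0 a negative one.

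Genes of the chloroplast genome, a set chosen after its values were seen, were also higher. Of 133 loci, 115 were tested, 92 were called higher and 4 lower in ein2 lhp1, with a median log2 difference of 1.09. The median was -0.36 in ein2 and 0.18 in lhp1, each against wild type, and the non-additivity was called positive in 85 genes and negative in 3, with a median of 1.39. Chloroplast genes took 1.35% and 1.43% of counts in ein2 lhp1, 0.872% and 0.879% in ein2, 1.4% and 1.41% in lhp1, and 1.1% and 1.12% in wild type. These are shares of all counts, whereas the differences are after TMM scaling, with scaling factors of 0.903 and 0.884 in ein2 lhp1, 1.07 and 1.07 in lhp1, and 0.998 and 0.997 in wild type. Of the 10 mitochondrial genes tested, 6 were called higher and 0 lower, with a median of 0.84. Organelle transcripts carry few stable poly(A) tails and the libraries were made by poly(A) selection, so these levels are of the part that was captured.

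**Figure D3:**
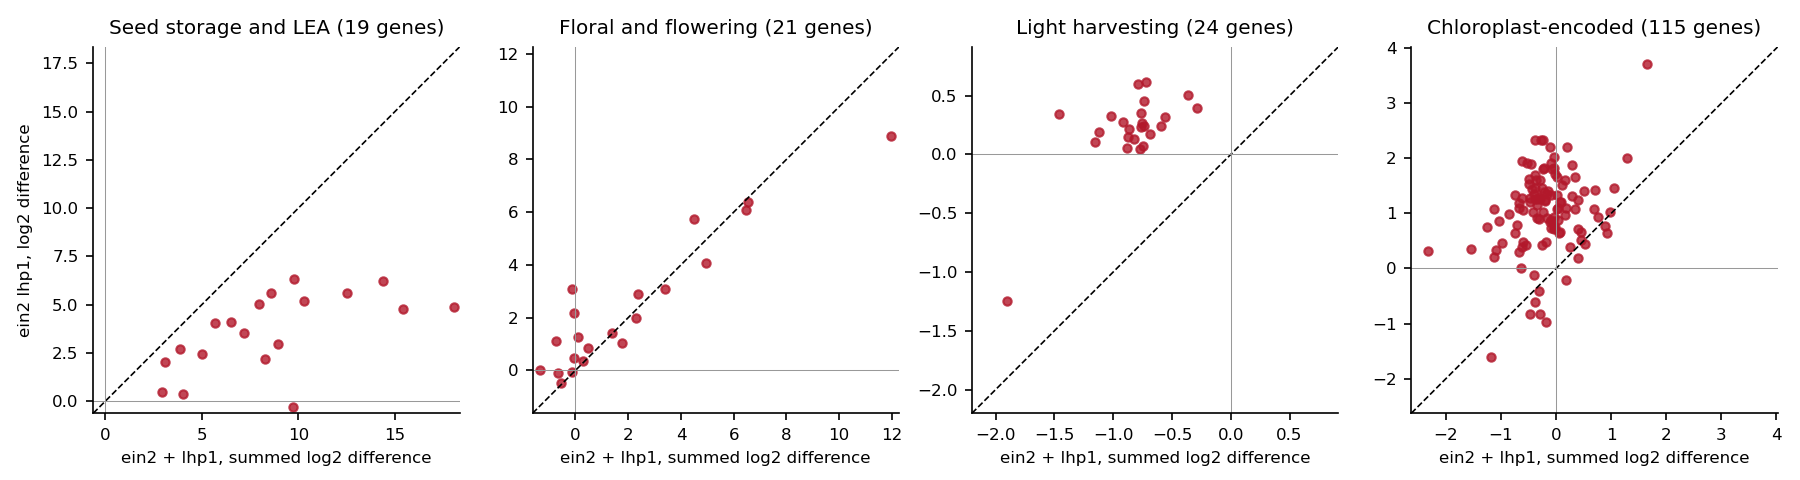
Sum of the log2 differences of ein2 and lhp1 from wild type (horizontal axis) against the log2 difference of ein2 lhp1 from wild type (vertical axis) at 21 °C for 4 groups of genes; the dashed line marks equal values. The 19 seed genes lie below the line at high sums, most of the 21 floral genes near it, and the 24 light-harvesting and most of the 115 chloroplast-encoded genes above it.

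Genes of abscisic acid (ABA) responses were mostly higher. Clade A phosphatases, which are induced by ABA and shut its signal off, and the synthesis enzyme NCED3 made up a list of 8, of which 6 were called higher and 1 lower. HAI3 was at 7.23 and 6.54 CPM in ein2 lhp1, 8.74 and 7.92 CPM in ein2, 1.003 and 1.04 CPM in lhp1, and 0.548 and 0.838 CPM in wild type, a log2 difference of 3.28 ± 0.26 (adjusted p = 2.6e-18), near the level in ein2. HAI1 rose by 1.19 ± 0.16 and NCED3 by 0.77 ± 0.14, while ABI1 fell by a log2 difference of -0.24 ± 0.059. Of 12 genes of the cold and ABA regulon, 6 were called higher and 2 lower, or 1 lower without ein2 lhp1 replicate 1 or 2 or wild type replicate 1. RD29B, a marker of ABA response, was at 257 and 252 CPM in ein2 lhp1, 248 and 250.4 CPM in ein2, 75.6 and 84.1 CPM in lhp1, and 43.4 and 45.3 CPM in wild type. It was high in both genotypes with ein2-5 and intermediate in lhp1, and its log2 difference from wild type was 2.52 ± 0.047 (adjusted p = 2.2e-55). KIN1, COR15A and RD29A, which protect cells in cold and drought, rose by 1.08 ± 0.063, 0.87 ± 0.068 and 0.63 ± 0.039. Of the factors that drive the cold regulon, CBF1 was called lower, with a log2 difference of -2.39 and a called non-additivity of -2.69. CBF2 and CBF3 were not called (0.22 ± 0.26 and -0.13 ± 0.25).

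Specialised metabolism separated ein2 lhp1 from ein2. In the thalianol and marneral gene clusters, which make root triterpenes, 7 of 7 genes were called higher than wild type, with a median of 0.59, and 7 of 7 lower than in ein2, with a median of -0.65. CYP705A12 of the marneral cluster was at 23.0 and 22.4 CPM in ein2 lhp1, 40.5 and 41.2 CPM in ein2, 13.0 and 13.0 CPM in lhp1, and 10.1 and 9.17 CPM in wild type. Among 6 genes of ER bodies and myrosinases, which break down glucosinolates, 4 were called higher than wild type and 0 lower, and 5 were lower than in ein2. TGG2, a myrosinase of the stomata and phloem, was at 72.9 and 72.6 CPM in ein2 lhp1, 76.3 and 78.3 CPM in ein2, 34.1 and 34.7 CPM in lhp1, and 15.9 and 18.3 CPM in wild type, a log2 difference of 2.08 ± 0.072 from wild type (adjusted p = 6.9e-38). PYK10, the main protein of root ER bodies, was at 3343 and 3313 CPM in ein2 lhp1, 5472 and 5409 CPM in ein2, 2693 and 2610.0 CPM in lhp1, and 2488 and 2486 CPM in wild type.

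Glucosinolate genes were called in both directions, 4 higher and 6 lower of 15. In the methionine-derived branch, CYP79F2 was at 3.74 and 3.27 CPM in ein2 lhp1, 14.7 and 14.1 CPM in ein2, 7.34 and 6.92 CPM in lhp1, and 13.0 and 14.0 CPM in wild type, a log2 difference of -1.95 ± 0.15, and the chain elongation genes MAM1 and BCAT4 had -1.54 ± 0.11 and -1.18 ± 0.28. CYP79F1 of this branch was not called (0.26 ± 0.24), and its regulator MYB29 was higher, by 1.08 ± 0.18. CYP79B3 and CYP83B1 of the tryptophan-derived branch were higher, by 0.43 ± 0.047 and 0.54 ± 0.046. Against ein2, 13 of the 15 genes were lower in ein2 lhp1 and 1 was higher. The flavonoid and anthocyanin pathway was also called in both directions, with 5 higher and 5 lower of 19 tested among 20 members. Chalcone synthase TT4 and the glucosyltransferase UGT78D2 fell, with -0.41 ± 0.035 and -0.36 ± 0.079, and the hydroxylase TT7, the reductase DFR and the anthocyanidin synthase LDOX rose, with 0.70 ± 0.14, 0.66 ± 0.11 and 0.48 ± 0.10. DFR was at 19.5 and 22.2 CPM in ein2 lhp1, 52.5 and 55.2 CPM in ein2, 19.9 and 18.3 CPM in lhp1, and 14.6 and 11.9 CPM in wild type. The high level of ein2 was not present in ein2 lhp1, and 14 of the 19 flavonoid genes were lower than in ein2 and 0 higher. In jasmonate synthesis and response, 4 genes were higher and 5 lower of 13 tested among 15 members. The vegetative storage proteins VSP2 and VSP1, induced by jasmonate, rose by 2.08 ± 0.079 and 1.28 ± 0.10, and the synthesis enzyme AOS by 1.08 ± 0.055, while the cyclases AOC1 and AOC2 had -1.11 ± 0.16 and -0.82 ± 0.064. Of 11 defence genes 5 were tested, 1 was called higher and 3 lower, or 1 lower without either ein2 lhp1 library and 2 without either wild type library. The chitinase CHI-B rose by 0.92 ± 0.066. The plant defensin genes PDF1.2, PDF1.2b, PDF1.2c and PDF1.3 were at 0 counts in the ein2 lhp1 and wild type libraries.

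**Figure D4:**
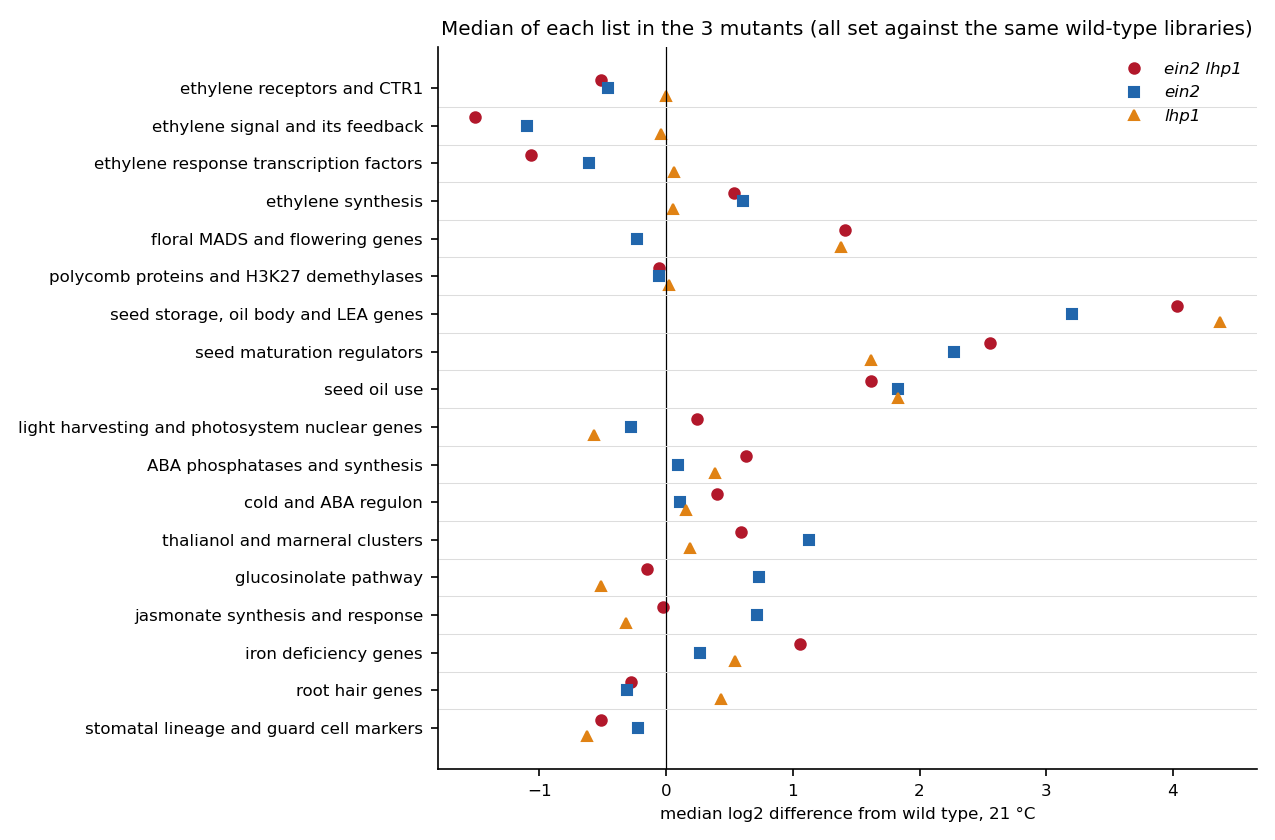
Median log2 difference from wild type over the tested members of each gene list at 21 °C in ein2 lhp1, ein2 and lhp1, which share the same 2 wild type libraries. The medians of the floral list were high in ein2 lhp1 and lhp1, those of the seed lists in all 3 mutants, and that of the light-harvesting list was above 0 in ein2 lhp1 only.

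Among the iron deficiency genes the transporter IRT1 had the largest difference. IRT1 (AT4G19690, chromosome 4, 10707344 to 10709015), which takes up iron in the root epidermis, was at 7.61 and 8.69 CPM in ein2 lhp1, 0.0629 and 0 CPM in ein2, 0.137 and 0.0609 CPM in lhp1, and 0 and 0 CPM in wild type. With 0 counts in both wild type libraries, which allows up to 3 read pairs or 6 counts over the group, IRT1 was at least 103-fold higher in ein2 lhp1. The iron reductase FRO2, which acts before IRT1, was at 2.26 and 1.84 CPM in ein2 lhp1, against 0.548 and 0.745 CPM in wild type, a log2 difference of 1.64 ± 0.40 (adjusted p = 0.00056). FRU, the factor that induces both, was not called (0.16 ± 0.17), and FRO3 fell by a log2 difference of -0.34 ± 0.081. Also called higher were the basic helix-loop-helix genes BHLH39 (1.06) and BHLH101 (2.12), AT1G47400 (0.83), AT1G47395 (0.59) and FER1 (0.16). BHLH38 and BHLH100 were not called. Of 12 iron deficiency genes, 11 were tested, 7 were called higher and 1 lower, against 17.6% higher and 16.1% lower over all genes. Many had few counts, and the number called higher was 3 without either ein2 lhp1 library, 5 without wild type replicate 1 and 4 without wild type replicate 2.

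Of 13 hypoxia genes, 2 were called higher and 3 lower, near the shares over all genes of 17.6% and 16.1%. ADH1, alcohol dehydrogenase, was at 38.5 and 35.5 CPM in ein2 lhp1, 44.1 and 39.0 CPM in ein2, 16.8 and 16.9 CPM in lhp1, and 7.65 and 5.84 CPM in wild type, a log2 difference of 2.47 ± 0.099 (adjusted p = 4.5e-34). FTM1, a desaturase induced by low oxygen, was at 1.27 and 0.750 CPM in ein2 lhp1, 9.87 and 8.54 CPM in ein2, 9.69 and 8.99 CPM in lhp1, and 3.47 and 3.70 CPM in wild type. It was above wild type in each single mutant and below it in ein2 lhp1, so that its non-additivity was -4.57 ± 0.25 (adjusted p = 9.6e-26). The haemoglobin HB1 and the cysteine oxidase PCO2 had log2 differences of -1.51 ± 0.18 and -1.25 ± 0.23. Among 17 heat shock genes, 2 were called higher and 6 lower, or 1 higher without replicate 2 of either genotype. The small heat shock protein HSP23.6-MITO was at 0.141 and 0.273 CPM in ein2 lhp1, 1.01 and 1.45 CPM in ein2, 2.78 and 2.26 CPM in lhp1, and 3.05 and 1.96 CPM in wild type, a log2 difference of -3.55 ± 0.41. The abundant HSP70 was not called (-0.0092 ± 0.045), and DREB2A, a factor of drought and heat, rose by 0.70 ± 0.12.

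Growth-related lists showed mixed changes, with list medians between -0.18 and 0.093. Over all genes, 17.6% were called higher and 16.1% lower. Called auxin response genes, 14 of 21, lay between -0.77 for IAA29 and 1.37 for IAA6. Of 10 auxin synthesis genes 0 were called higher and 2 lower, or 1 lower without either ein2 lhp1 library and 0 without wild type replicate 2, and of 21 auxin response genes 8 were higher and 6 lower, or 5 and 4 without ein2 lhp1 replicate 2 and 5 and 5 without wild type replicate 1. SAUR21, which promotes cell expansion, was at 20.7 and 22.2 CPM in ein2 lhp1, 9.15 and 12.7 CPM in ein2, 11.4 and 11.6 CPM in lhp1, and 12.6 and 10.8 CPM in wild type, a rise of 0.88 ± 0.11 log2 units. The auxin repressors IAA4 and IAA7 had log2 differences of -0.59 ± 0.078 and -0.40 ± 0.038. In light signalling, 3 of 15 genes were called higher, or 2 without wild type replicate 2, and 4 lower. PIF4, which drives hypocotyl growth, rose by 0.48 ± 0.050, PIF3 had -0.88 ± 0.092, and the expansin EXPA8 had -0.56 ± 0.046. Of 17 clock genes, 4 were called higher, or 2 without ein2 lhp1 replicate 2 or wild type replicate 1, and 4 lower, with values between -0.53 for the evening gene ELF3 and 1.16 for BOA. LHY, a morning gene, was at 11.7 and 11.2 CPM in ein2 lhp1, 7.35 and 7.32 CPM in ein2, 8.21 and 8.47 CPM in lhp1, and 6.70 and 6.66 CPM in wild type, and TOC1, an evening gene, had a log2 difference of -0.45 ± 0.072.

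Genes of the polycomb machinery were called about as often as genes in general. Of 25 genes listed as polycomb proteins and H3K27 demethylases 24 were tested and 7 were called, against 33.8% of all genes tested. Besides LHP1, with the value above, 4 were called lower and 2 higher, with log2 differences between -0.48 and 0.47. The lowest of these was ATX1, a trithorax-group gene that the list also holds. Over the whole list the 2 higher genes were 0 without ein2 lhp1 replicate 2 or wild type replicate 1 and 1 without wild type replicate 2, and the 5 lower genes were 3 without ein2 lhp1 replicate 1. The methyltransferase gene CLF and the demethylase genes REF6 and ELF6 were not called (0.068 ± 0.10, 0.055 ± 0.083 and 0.043 ± 0.092). The methyltransferase gene SWN was called lower, as were EMF2 and VRN2, with log2 differences of -0.35, -0.40 and -0.42. In the list of the INO80 and SWR1 remodellers and histone H2A.Z, 3 of 9 were called higher and 2 lower. Without 1 library the higher genes were 1 or 2, and the lower genes were 3 without ein2 lhp1 replicate 1 and 1 otherwise. INO80 was at 28.1 and 25.8 CPM in ein2 lhp1, 30.0 and 29.7 CPM in ein2, 32.8 and 35.4 CPM in lhp1, and 32.3 and 35.8 CPM in wild type, a log2 difference of -0.34 ± 0.080 (adjusted p = 0.00036). The H2A.Z gene HTA11 was at 58.0 and 61.9 CPM in ein2 lhp1, 37.7 and 40.1 CPM in ein2, 35.99 and 38.5 CPM in lhp1, and 48.6 and 47.5 CPM in wild type. It was above wild type in ein2 lhp1 and below it in both single mutants, with a non-additivity of 0.99 ± 0.096 (adjusted p = 5.3e-14).

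Markers of cell types were read beside these lists. Of 10 root markers 2 were called higher and 0 lower, and their sum was 210.2 and 217 CPM in ein2 lhp1, against 190.4 and 184 CPM in wild type. Of 8 root hair genes 4 were called lower and 0 higher, or 2 lower without ein2 lhp1 replicate 1 or wild type replicate 1, with sums of 129 and 130.5 CPM in ein2 lhp1, against 174 and 179 CPM in wild type. XTH14, a cell wall enzyme of root hairs, was at 23.6 and 22.7 CPM in ein2 lhp1, 19.5 and 18.7 CPM in ein2, 62.9 and 59.9 CPM in lhp1, and 37.6 and 40.3 CPM in wild type. Of 8 stomatal lineage and guard cell markers 5 were called lower and 0 higher, or 3 lower without wild type replicate 2, with sums of 55.0 and 57.9 CPM in ein2 lhp1, against 76.1 and 78.9 CPM in wild type. SPCH, which starts the stomatal lineage, was at 3.81 and 3.34 CPM in ein2 lhp1, 7.10 and 7.92 CPM in ein2, 3.83 and 4.27 CPM in lhp1, and 8.71 and 8.66 CPM in wild type, a log2 difference of -1.28 ± 0.17, and the guard cell factor MYB60 had -0.83 ± 0.17. The part of cell type shares in the other results was not tested. Over all 31 lists, 376 of 399 members were tested and 231 (61.4%) were called, against 33.8% over all genes. The lists were chosen with earlier results of these data known, so that this share is not independent support.

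The single genes with the largest differences lay partly outside the lists. AT4G05475 (AT4G05475, chromosome 4, 2765962 to 2767957) and AT4G05470 next to it (AT4G05470, chromosome 4, 2763211 to 2765351), both annotated as RNI-like proteins, were high in ein2 lhp1. AT4G05475 was at 14.6 and 15.0 CPM in ein2 lhp1, 0.126 and 0 CPM in ein2, 12.2 and 14.7 CPM in lhp1, and 0 and 0 CPM in wild type, at least 187-fold above wild type, and AT4G05470 was at 6.13 and 8.86 CPM in ein2 lhp1, 0.0629 and 0 CPM in ein2, 7.09 and 7.86 CPM in lhp1, and 0.0609 and 0.0466 CPM in wild type. The neighbours were high in both genotypes with lhp1-3 and near 0 in the others. AT1G68250, of unknown function, was at 137 and 132 CPM in ein2 lhp1, 5.47 and 4.95 CPM in ein2, 30.2 and 30.2 CPM in lhp1, and 0 and 0.279 CPM in wild type. It was highest in ein2 lhp1 by a wide gap. RTNLB13, a reticulon, was at 2.78 and 3.27 CPM in ein2 lhp1, 2.42 and 2.44 CPM in ein2, 1.19 and 0.731 CPM in lhp1, and 0 and 0 CPM in wild type, at least 38.3-fold above wild type. AT2G28490, annotated as a cupin, the fold of the storage globulins, was at 45.6 and 41.3 CPM in ein2 lhp1, 21.5 and 21.4 CPM in ein2, 20.5 and 22.003 CPM in lhp1, and 0.244 and 0.279 CPM in wild type. AT5G55410, of the family that holds lipid transfer proteins and 2S albumins, was at 20.7 and 21.2 CPM in ein2 lhp1, 27.3 and 30.0 CPM in ein2, 5.11 and 6.89 CPM in lhp1, and 0.0609 and 0.0931 CPM in wild type. AT5G07330, ATOEP16-2 and AT1G27990 were likewise above wild type in all 3 mutants. Their levels in ein2 lhp1 were 27.3 and 29.2, 23.1 and 23.2 and 8.46 and 6.24 CPM, against 0.427 and 0.186, 0.305 and 0.186 and 0.0914 and 0 CPM in wild type.

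Among the largest falls, AT2G05660 (AT2G05660, chromosome 2, 2108121 to 2114699), of unknown function, was at 0 and 0 CPM in ein2 lhp1, 0.0629 and 0 CPM in ein2, 0 and 0.122 CPM in lhp1, and 10.9 and 10.8 CPM in wild type, at least 104-fold lower in ein2 lhp1. QQS (AT3G30720, chromosome 3, 12349047 to 12349933), an orphan gene that affects starch and protein content, was at 0 and 0 CPM in ein2 lhp1, 0.0629 and 0.0660 CPM in ein2, 0.274 and 0.244 CPM in lhp1, and 2.56 and 3.82 CPM in wild type, at least 31.5-fold lower in ein2 lhp1. Both were near 0 in all 3 mutants, with lhp1 slightly above the others for QQS. FLS2, the receptor of bacterial flagellin, was at 0.352 and 0.341 CPM in ein2 lhp1, 1.70 and 0.792 CPM in ein2, 6.34 and 5.73 CPM in lhp1, and 10.5 and 9.31 CPM in wild type, a log2 difference of -4.82 ± 0.28 (adjusted p = 6.7e-25). XTH26, a cell wall enzyme, was at 0.0705 and 0.136 CPM in ein2 lhp1, 0.126 and 0.198 CPM in ein2, 7.80 and 9.63 CPM in lhp1, and 3.595 and 3.26 CPM in wild type. It was low in both genotypes with ein2-5 and highest in lhp1. PGAZAT, annotated as a polygalacturonase like ADPG2, had 0.211 and 0.409 CPM in ein2 lhp1, 0 and 0.132 CPM in ein2, 0.821 and 0.610 CPM in lhp1, and 9.75 and 6.70 CPM in wild type. The basic helix-loop-helix gene AT2G43140 and the unannotated AT5G50335 and AT3G05955 completed the largest falls, with 0.211 and 0.0682, 0.0705 and 0 and 0 and 0.0682 CPM in ein2 lhp1, against 5.03 and 5.80, 5.91 and 7.08 and 3.78 and 3.14 CPM in wild type.

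Non-additivity, the log2 difference of ein2 lhp1 minus those of ein2 and lhp1, all from the same wild type libraries, was called in 5971 of 21987 genes (27.2%), 3117 (14.2%) positive and 2854 (13%) negative. At 1 log2 unit or more these were 869 genes (3.95%), 392 (1.78%) positive and 477 (2.17%) negative. AT2G08986, of unknown function, was at 3.67 and 1.19 CPM in ein2 lhp1, 0 and 0 CPM in ein2, 0 and 0 CPM in lhp1, and 0.122 and 0.0931 CPM in wild type, and its replicates in ein2 lhp1 lay apart. AT5G35935 was at 18.7 and 18.5 CPM in ein2 lhp1, 13.3 and 14.0 CPM in ein2, 0.319 and 0.244 CPM in lhp1, and 16.3 and 13.6 CPM in wild type, with a non-additivity of 6.13 ± 0.26 (adjusted p = 1.9e-32). It was low in lhp1 and near the wild type level in ein2 lhp1 and ein2. AT5G15360 was at 0.458 and 1.06 CPM in ein2 lhp1, 0.911 and 1.29 CPM in ein2, 0.0228 and 0.122 CPM in lhp1, and 5.42 and 6.47 CPM in wild type. AT5G53230 was at 0 and 0 CPM in ein2 lhp1, 0.377 and 0.528 CPM in ein2, 2.303 and 2.13 CPM in lhp1, and 0.487 and 1.02 CPM in wild type, at least 7.62-fold lower in ein2 lhp1 than in wild type.

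Set directly against the single mutants, ein2 lhp1 differed from ein2 in 8100 genes (36.8%), 3930 (17.9%) higher and 4170 (19%) lower, and from lhp1 in 7896 (35.9%), 4238 (19.3%) higher and 3658 (16.6%) lower. The floral list separated it from ein2, with 14 of 21 genes higher and 0 lower, and a median of 1.62. Against lhp1 the floral genes were 4 higher and 3 lower, with a median of -0.16. The ethylene transcription factors separated it from lhp1, with 8 of 11 lower and 1 higher, and a median of -0.95, and against ein2 5 were lower and 0 higher. Light-harvesting genes were higher in ein2 lhp1 than in each single mutant, in 23 of 24 genes in both comparisons. The mannan synthase gene CSLA01 was at 0.846 and 0.545 CPM in ein2 lhp1, 13.3 and 12.4 CPM in ein2, 0.0456 and 0.244 CPM in lhp1, and 0 and 0.0931 CPM in wild type, and the RING-type gene APD3 at 0.0705 and 0.0682 CPM in ein2 lhp1 and 2.45 and 4.16 CPM in ein2. Both were far higher in ein2 than in ein2 lhp1. AT1G75945 was at 6.98 and 6.99 CPM in ein2 lhp1, 4.21 and 5.34 CPM in ein2, 0.137 and 0 CPM in lhp1, and 0.122 and 0.186 CPM in wild type, with a difference of 6.42 ± 0.40 log2 units between ein2 lhp1 and lhp1.

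At 27 °C, in libraries that the comparison at 21 °C did not use, ein2 lhp1 differed from wild type in 10323 genes (47%), 5267 (24%) higher and 5056 (23%) lower. Of the 3878 genes higher at 21 °C, 2930 (75.6%) were called higher at 27 °C and 73 lower, and these were 55.6% of the genes higher at 27 °C. Of the 3549 lower at 21 °C, 2447 (68.9%) were called lower at 27 °C and 101 higher, and these were 48.4% of the genes lower at 27 °C. Among genes with at least 1 log2 unit at 21 °C, 572 of 713 higher genes (80.2%) and 293 of 446 lower genes (65.7%) were called in the same direction at 27 °C. The genotype difference itself changed between temperatures in 3709 genes (16.9%), 2225 (10.1%) upward and 1484 (6.75%) downward, among them 2023 of the 7427 genes called at 21 °C (27.2%).

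The ethylene genes ETR2 and ARGOS were lower at both temperatures. ETR2 was at 1.39 and 1.59 CPM in ein2 lhp1 at 27 °C, against 15.6 and 16.3 CPM in wild type at 27 °C, with a log2 difference of -3.41 ± 0.20, against -3.33 ± 0.21 at 21 °C. ARGOS was at 2.201 and 2.03 CPM in ein2 lhp1 at 27 °C, against 12.6 and 11.0 CPM in wild type at 27 °C, a log2 difference of -2.49 ± 0.19, smaller in size than at 21 °C by 2.03 ± 0.33 (adjusted p = 1.2e-06). The floral list had 15 of 21 genes higher and 1 lower at 27 °C, and 0 of its genes changed their difference between temperatures. SEP3 was at 29.7 and 28.4 CPM in ein2 lhp1 at 27 °C, against 0.542 and 0.825 CPM in wild type at 27 °C. The seed list had 17 of 19 genes higher and 0 lower, with a median of 5.03, and 9 genes with a difference larger than at 21 °C. RAB18 was at 291 and 278 CPM in ein2 lhp1 at 27 °C, against 10.9 and 10.3 CPM in wild type at 27 °C, a log2 difference of 4.74 ± 0.063, beyond that at 21 °C by 2.71 ± 0.085 (adjusted p = 6.6e-39). The light-harvesting list had 23 of 24 genes higher and 1 lower at 27 °C, with a median of 0.49, and in 21 genes the difference was more positive than at 21 °C. Of the flavonoid list, 13 of 19 genes were higher and 1 lower at 27 °C, where 5 and 5 had been called at 21 °C, and 12 changed their difference upward. DFR was at 15.5 and 16.5 CPM in ein2 lhp1 at 27 °C, against 3.16 and 3.12 CPM in wild type at 27 °C, a log2 difference of 2.35 ± 0.13. IRT1 had a smaller difference than at 21 °C, with 0.957 and 0.868 CPM in ein2 lhp1 at 27 °C, against 0 and 0.177 CPM in wild type at 27 °C. The chloroplast genome had 96 genes higher and 5 lower of 115 at 27 °C, with a median of 2.09.

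**Figure D5:**
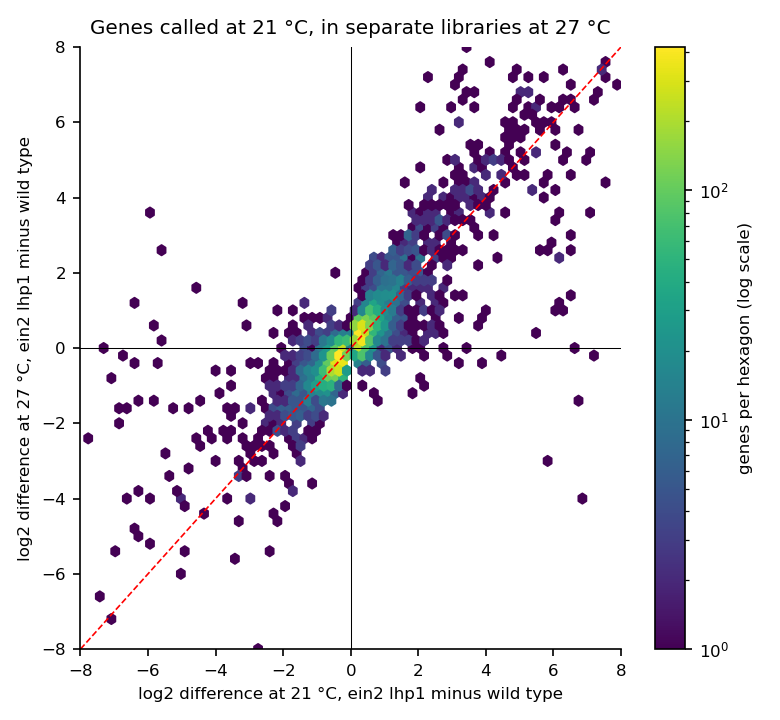
Log2 difference of ein2 lhp1 from wild type at 21 °C (horizontal axis) against that at 27 °C (vertical axis) for the genes called at 21 °C. Lighter cells hold more genes, and 7399 genes are drawn with 28 outside the axes. Most genes lie in the quadrants of equal sign, where 2930 higher and 2447 lower genes were called in the same direction at both temperatures.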

How the data were processed

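Poly(A)-selected RNA (NEBNext) of whole Arabidopsis seedlings was sequenced. The values are raw read counts per gene that the authors deposited, made with featureCounts 2.0.3 per the file headers, without a strand option and with the mates of a pair counted singly. Floors cover counting error only, and standard errors cover the spread between these libraries. Reads of overlapping antisense genes cannot be told apart. The submitters' processing notes name FastQC, Trim Galore, STAR, featureCounts, Subread 2.0.1, DESeq2 and TAIR10. The headers of the count columns read 22 and 28 where the labels give 21 and 27 °C, and the labels were followed. Coordinates are those of the count tables, on TAIR10.

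Counts of 36799 loci were tested with edgeR 4.0.16 (R 4.3.3): TMM scaling, filterByExpr by group, a mean per group over all 20 libraries in 10 groups, and quasi-likelihood tests, two-sided, with Benjamini-Hochberg adjustment over 21987 genes. The spread was shared over genes and groups, with 10 residual and 59.6 prior degrees of freedom. Total counts were 24153109 to 47566071 over the 20 libraries.

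Genes named are EIN2 and LHP1, members of the 31 lists, and by rule the 10 largest increases and decreases from wild type among called genes with at least 2 CPM in the higher group and no overlap of replicates, the 5 largest of each sign in non-additivity, and the 3 largest of each sign against each single mutant. Not every gene under the rule is described, and some items are not reported here. The comparison and the lists were chosen with earlier results of these data known. A floor of 3 read pairs, 6 counts since mates were counted singly, over the group was used for groups at 0. Alternatives were DESeq2 1.42.0 and its size factors, no low-count filter, the compared groups alone, a replicate block, a gene length trend removed, ribosomal RNA regions left out, a minimum of 1 log2 unit, and each library left out in turn.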

Additional observations from a re-analysis of the deposited data

Results flagged for a closer look

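Of 155 of the named genes that were tested, 58 had a genotype difference that changed between 27 and 21 °C by edgeR's test of the interaction (adjusted p under 0.05), and 22 of these by at least 1 log2 unit. Values are the log2 difference of ein2 lhp1 from wild type at 27 °C minus that at 21 °C. Where a group is at or near 0 counts the fitted value depends on the prior count and gives no fold. Groups of 2 allow no test for outlying libraries.

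Several seed, ABA and flavonoid genes changed upward. The dehydrin RAB18 changed by 2.71, the LEA genes EM1 and AT3G15670 by 2.78 and 1.05, the storage protein genes SESA3 and CRA1 by 3.42 and 1.26, the phosphatase HAI3 by 1.51 and the cold-regulated COR15A by 1.34. Among flavonoid enzymes the change was 1.05 for TT4, 1.69 for DFR and 1.71 for LDOX. RAB18 was at 291 and 278 CPM in ein2 lhp1 and 10.9 and 10.3 CPM in wild type at 27 °C, and at 119 and 130.0 CPM in ein2 lhp1 and 28.8 and 31.9 CPM in wild type at 21 °C. For RAB18, ein2 lhp1 was higher and wild type was lower at 27 °C than at 21 °C.

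The hypoxia genes ADH1, HB1 and FTM1 and the iron transporter IRT1 changed downward. The values were -1.46 for ADH1, -1.02 for HB1, -1.66 for FTM1 and -7.68 for IRT1. The glucosinolate gene CYP79F1 changed by -1.97. ADH1 was at 48.2 and 46.6 CPM in ein2 lhp1 and 23.8 and 23.2 CPM in wild type at 27 °C.

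Of the genes below wild type at 21 °C, QQS changed upward by 5.51, PGAZAT by 3.05, HSP23.6-MITO by 2.67 and ARGOS by 2.03, while the changes of ETR2 and ARL, also below wild type, were not called (-0.076 ± 0.32 and 0.76 ± 0.39). QQS was at 0.287 and 0.145 CPM in ein2 lhp1 and 4.24 and 3.83 CPM in wild type at 27 °C. Of the genes of unknown function, AT1G75945 changed by 5.02, AT1G68250 by 2.84 and AT2G08986 by -4.62.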

How the results depend on the processing

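With a minimum of 1 log2 unit the counts of called genes were 1159 for ein2 lhp1 against wild type at 21 °C, 869 for non-additivity, 892 against ein2, 957 against lhp1, 1687 for ein2 lhp1 against wild type at 27 °C and 343 for the change of the genotype difference between temperatures, where the counts without a minimum were 7427, 5971, 8100, 7896, 10323 and 3709. With a gene length trend removed, the change between temperatures was called in 2257 genes, and the cause was not tested. Under the other settings, and with DESeq2, each of these counts stayed within 1.5 times. Leaving out 1 library at a time gave 5794 to 5985 genes for ein2 lhp1 against wild type at 21 °C, 5036 to 5233 for non-additivity, 6522 to 6686 against ein2, 6236 to 6397 against lhp1, 8516 to 9022 at 27 °C and 2830 to 3721 for the change between temperatures, and 199 to 203 called list members, against 231. With 1 library left out, the lone library of its group was assumed to vary like the other groups. A replicate block called 7376 genes in ein2 lhp1 against wild type, of which 7351 were among the 7427. Deviations of same-numbered libraries correlated by -0.0491 to 0.0353 between groups, so no shared replicate effect was seen. These values cannot show whether such libraries were grown or prepared together, which the labels do not state.

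Of 1697 values of 155 of the named genes under other settings, 1670 stayed on the same side of the threshold, 26 lost their call and 1 gained one. The calls lost were those of WUS, EIN3, FUS3, LHCA1, SESA1, SESA2, FLC and AT5G35935. The medians of the meristem, remodeller, flavonoid, clock, jasmonate, hypoxia and heat shock lists lay near 0 and changed sign under at least 1 setting. The depth limits genes of few counts, among them the albumins, the iron deficiency genes and the genes under the filter.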
